A study of Mus musculus and Homo sapiens with 10 samples.

Results

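HOX genes encode homeodomain transcription factors that give cells positional identity along the body axis, and in mammals they lie in 4 clusters, HOXA, HOXB, HOXC and HOXD. Along each cluster the order of the genes follows the order in which they are used in the embryo. The clusters are known as targets of Polycomb complexes, and silent HOX genes carry trimethylation of histone H3 at lysine 27 (H3K27me3). Active HOX promoters carry trimethylation of lysine 4 (H3K4me3), a mark made by complexes that contain WDR5, and acetylation of lysine 27 (H3K27ac). CBX8 is a chromodomain subunit of Polycomb repressive complex 1, and the study's title joins it with Wdr5 in mammary tumorigenesis. Complexes of both kinds are known to act at HOX clusters.

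The clusters were taken as 8 windows, 4 in the human genome build hg19 and 4 in the mouse build mm9, together 1180 kb. A listed region belonged to a cluster when it overlapped the window by at least 1 bp. Of the 4818 regions in the 8 deposited lists, 1 met this rule. The human windows held 1 of 3852 listed regions, and the mouse windows held 0 of 966.

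The series holds 10 libraries, of which 8 are chromatin immunoprecipitations and 2 are inputs, 1 input per line and both from shScr cells. The immunoprecipitations comprise 6 of mouse MMTV-Myc cells, a name used for mammary tumours driven by a Myc transgene, and 2 of MDA-MB-231-Luc cells, by name a derivative of the human breast cancer line MDA-MB-231. Control cells (shScr, genotype given as wild type) and knockdown cells (Cbx8 or CBX8 knockdown) were both made by lentiviral infection and kept under puromycin; the labels name pLKO.1 hairpins against Cbx8 without saying which hairpin made which library, and they give no time point. In MMTV-Myc cells, H3K4me3, H3K27ac and H3K27me3 were each compared between shCbx8 and shScr. In MDA-MB-231-Luc cells the comparison was of H3K4me3 alone, between shCBX8 and shScr. Each combination of line, hairpin and antibody had 1 library, so no value here has a replicate check and no test between conditions was possible. The lists give positions only. They hold no depth, no signal and no fold, and a cluster without a listed region is not shown to be unchanged. No expression value was at hand, so the knockdown itself could not be checked.

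The human region lay in the HOXB window and was called lower for H3K4me3 after CBX8 knockdown. It covered chr17:46695901-46697450 (hg19), a length of 1550 bp. It began 95.9 kb from the start of the window and ended 113.0 kb before its end, so it sat near the middle of the window and took up 0.738% of it. The window ends are set coordinates and not gene ends, so this does not place the region among the HOXB genes. No hg19 annotation was used here, so the region is reported by position and was not assigned to a HOX gene, an exon, an intron or a promoter. The HOXA, HOXC and HOXD windows held 0 regions called lower, and all 4 human windows held 0 regions called higher. At HOX clusters, the change listed in MDA-MB-231-Luc cells was thus a lower H3K4me3 call over a single stretch of HOXB.

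A count of 1 is too small to be set apart from the average of the lists. When the genome span covered by the lists was cut into tiles of 10000 bp, 0.608% of 299512 tiles held a region called lower and 1.05% held a region called higher. In the human HOX windows, 1 of 58 tiles held a lower region, or 1.72% (exact 95% Clopper-Pearson interval 0.0436 to 9.24%), and 0 of 58 held a higher one. The interval contains the share over all tiles. It covers counting error over tiles only. At the mean density of 1.29 listed regions per Mb, windows of this total size would hold 0.746 regions in both directions together, against the 1 found. For lower regions alone, at 0.414 per Mb, they would hold 0.24, against the same 1. Tiles and mean density take no account of promoters, which HOX clusters hold in number. They also take no account of stretches where reads cannot be placed. The share of all changed human regions called lower was 32.2%, and a single lower region gives a share of 100.0% with an exact interval of 2.5 to 100.0%, so the direction at the HOX clusters could not be set apart from that of the other regions.

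The HOXB region was short for the list it came from. Lower regions in MDA-MB-231-Luc cells had a median length of 4400 bp, and the shortest was 1000 bp. Of the 1241, 7 were shorter than the HOXB region and 4, itself included, had its length, so 0.886% of the list was as short or shorter. Among the regions called higher, 1139 of 2611 were 1550 bp or shorter, which is 43.6%, and their median was 1750 bp. Between 1450 and 1650 bp, 260 human regions were listed, of which 8 were called lower and 252 higher. The lower share at that length was 3.08% (exact 95% interval 1.34 to 5.97%, regions as units). The HOXB region was thus among the few lower calls at a length where nearly all listed regions were higher.

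**Figure D1:**
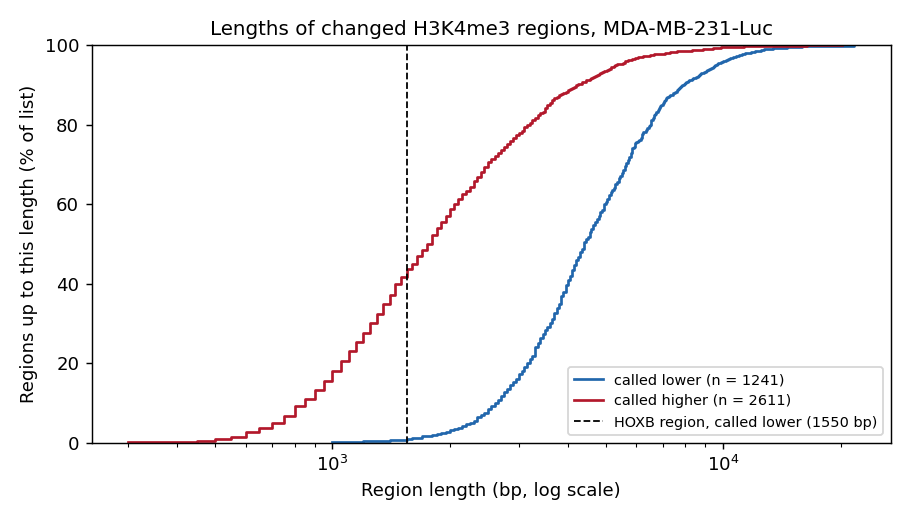
Cumulative share of changed H3K4me3 regions in MDA-MB-231-Luc cells (vertical axis, percent of each list) by region length (horizontal axis, bp, log scale), for the 1241 regions called lower and the 2611 called higher. The dashed line marks the HOXB region at 1550 bp, where the curve of lower regions has reached 0.886% and that of higher regions 43.6%.

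On both sides of the HOXB region, the nearest listed region lay over 1 Mb away. The mean density over the human span was 1.29 listed regions per Mb, and how usual such distances are was not determined. Before the HOXB region, the nearest was a region called higher, 1400 bp long, at chr17:43303051-43304450, 3.39 Mb away. After it, the nearest was a region called lower, 3800 bp long, at chr17:47783801-47787600, 1.09 Mb away. Chromosome 17 as a whole held 113 listed regions, 34 lower and 79 higher, a lower share of 30.1% (exact 95% interval 21.8 to 39.4%). The HOXB call was therefore the single call within the cluster, and its nearest neighbours, both over 1 Mb away, had opposite directions.

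Around the HOXA and HOXC windows, the nearest listed regions lay closer than around HOXD, without entering the windows. The region nearest to HOXA was called higher, measured 1400 bp, and lay 126 kb after the window at chr7:27385601-27387000. On its other side, 885 kb before the window, a broad region of 9.6 kb was called lower (chr7:26235801-26245400). HOXC had listed regions close by on both sides. A lower region of 4.1 kb lay 309 kb before it (chr12:54016751-54020850) and a lower region of 2.45 kb lay 131 kb after it (chr12:54580801-54583250), followed by a higher region of 2.85 kb at 202 kb (chr12:54651651-54654500). HOXD sat in the longest stretch free of listed regions of these 3 clusters, 1.99 Mb, between a lower region of 3.8 kb, 905 kb before the window (chr2:176030901-176034700), and a higher region of 2.45 kb, 969 kb after it (chr2:178028701-178031150). For HOXA and HOXC the stretches measured 1.14 and 0.56 Mb. Stretches as long as that of HOXD made up 42.4% of the span covered by the human lists, and stretches as long as those of HOXA and HOXC made up 63.6% and 83.5%. Stretches this long without listed regions were thus common over that span at this density of calls. Like the tiles, these shares take no account of promoters. Stretches where reads cannot be placed were not left out of the span and count as free of listed regions.

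Within 1 Mb of the human windows, but outside them, 10 regions were listed, 5 called lower and 5 called higher. HOXC had 5 of these (2 lower, 3 higher), HOXA 2, HOXD 2 and HOXB 1. Within 3 Mb of the window centres, with the HOXB region counted, 12 of 32 regions were lower and 20 higher, beside the lower share of 32.2% over all human regions. Both directions were thus listed around the clusters.

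**Figure D2:**
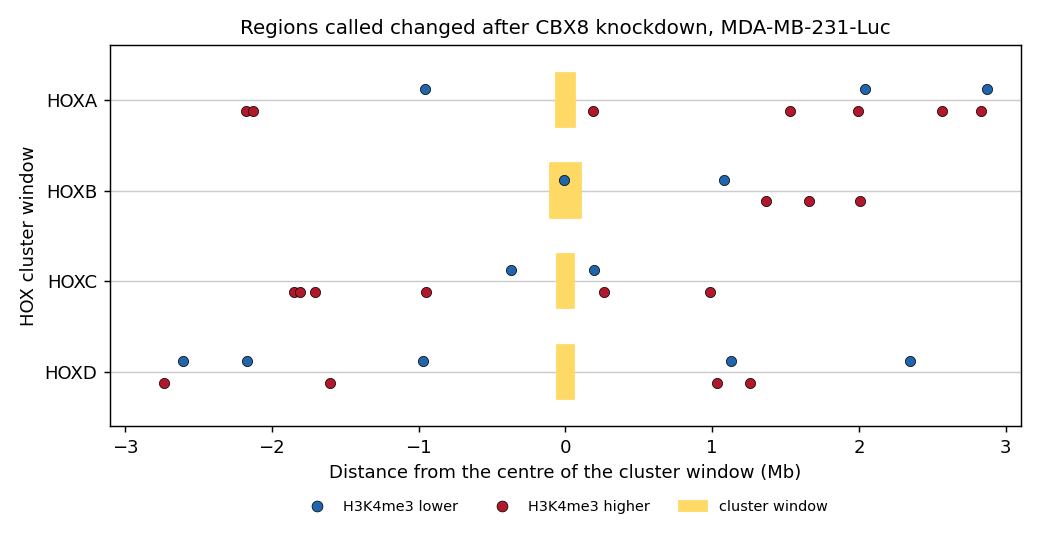
Regions called changed for H3K4me3 in MDA-MB-231-Luc cells within 3 Mb of the centre of each human HOX window (horizontal axis, Mb). Each point is a region, lower regions in blue above the line and higher regions in red below it, and the yellow bar is the window; of the 32 regions shown, 12 are lower and 20 higher, and 1 lies inside a window, that of HOXB.

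In MMTV-Myc cells the 4 Hox windows, together 600 kb, held 0 listed regions for each of the 3 marks. For H3K4me3 this was 0 of 701 regions called lower and 0 of 18 called higher, with 0.338% and 0.00849% of all tiles of 10000 bp holding such a region. For H3K27ac it was 0 of 166 lower and 0 of 16 higher, against 0.0804% and 0.00768% of all tiles. For H3K27me3, the mark of Polycomb repression, it was 0 of 63 lower and 0 of 2 higher, against 0.0352% and 0.00162% of all tiles. The mouse windows comprise 60 tiles, but the 14 of Hoxc lie beyond the last listed region of their chromosome and so outside the span over which these shares were taken, which leaves 46. At the mean density over all 6 lists, 0.39 regions per Mb, the full 600 kb, Hoxc included, would hold 0.234 regions, and fewer without Hoxc. The mouse lists therefore cannot show that the Hox clusters were spared, nor that H3K27me3 there was kept.

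The distance to the nearest listed region differed widely between the mouse clusters. Hoxb was closest, with a lower H3K27ac region of 4.6 kb that ended 192 kb before the window (mm9, chr11:95852951-95857550) and a lower H3K4me3 region of 1.4 kb at 674 kb (chr11:95375101-95376500). These were the 2 regions listed within 1 Mb of a mouse window. Near Hoxa, a lower H3K27ac region of 1350 bp lay 1820 kb before the window (chr6:50278551-50279900), and on the other side the next region of any mark was 20500 kb away. Near Hoxd, the closest was a lower H3K4me3 region of 2300 bp, 2770 kb before the window (chr2:71710501-71712800). On the other side of Hoxd the next region of any mark was 17200 kb away. Near Hoxc it was a lower H3K4me3 region of 1050 bp, 3240 kb before the window (chr15:99500651-99501700), with none listed beyond it. The end of the Hoxc window lay 3.38 Mb past the last region listed on its chromosome. Over all marks together, the stretches free of listed regions measured 22.5 Mb at Hoxa, 1.63 Mb at Hoxb and 20.1 Mb at Hoxd. Stretches as long made up 10.6%, 87.7% and 13.2% of the span covered by the mouse lists. Hoxc has no such share, as no region was listed after it. Like the human shares, these take no account of promoters or of stretches where reads cannot be placed. The nearest H3K27me3 region to any mouse cluster was a lower region of 4250 bp, 1830 kb before Hoxb (chr11:94213601-94217850).

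**Figure D3:**
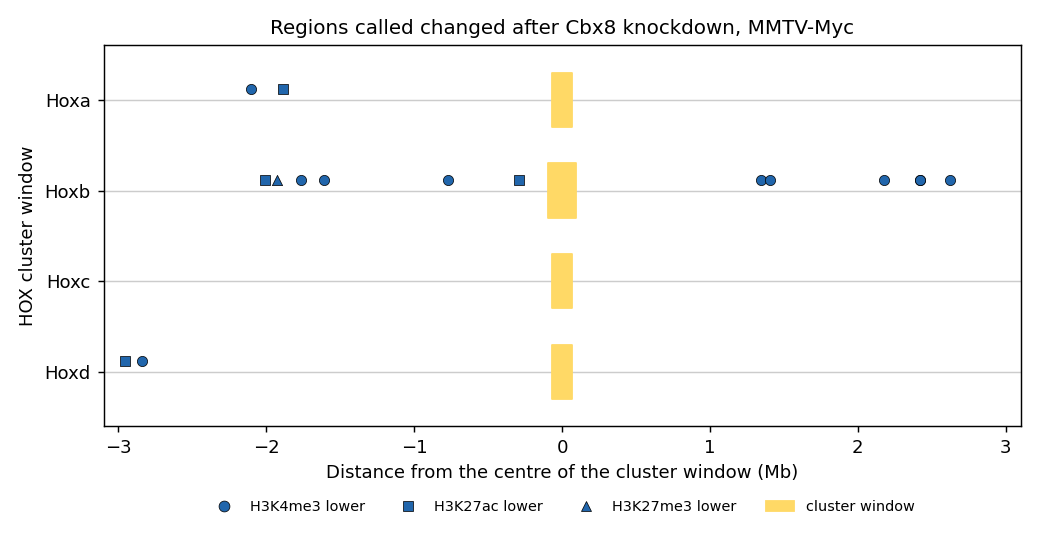
Regions called changed in MMTV-Myc cells within 3 Mb of the centre of each mouse Hox window (horizontal axis, Mb), by mark (circle H3K4me3, square H3K27ac, triangle H3K27me3), with the window in yellow. All 16 regions shown were called lower, 12 of them lie near Hoxb, and 0 lie inside a window. Chromosome 11, with Hoxb, held 63 lower regions for H3K4me3, 19 for H3K27ac and 4 for H3K27me3. Chromosome 6 (Hoxa) held 31, 8 and 1, chromosome 15 (Hoxc) 29, 6 and 1, and chromosome 2 (Hoxd) 69, 22 and 4. The mean over the mouse span was 0.39 regions per Mb for all lists together. Whether calls gather near Hoxb was not tested. Nearly all regions of the mouse lists were lower wherever they lay. The lists hold 701 lower and 18 higher for H3K4me3, 166 and 16 for H3K27ac, and 63 and 2 for H3K27me3.

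The gene content of the windows is given here as background, with names and gene order from a RefSeq table of the mouse assembly GRCm38.p6. Gene starts in that table were used only to order the genes, and not to place any listed region. All 38 HOX genes named for the clusters were matched in that table by symbol. They comprised 10 genes of Hoxa, 10 of Hoxb, 9 of Hoxc and 9 of Hoxd. In Hoxb, the cluster matching the human window with the listed region, the order runs from Hoxb13 through Hoxb9, Hoxb8, Hoxb7, Hoxb6 and Hoxb5 to Hoxb2 and Hoxb1. This is the order of rising mouse position. It does not give the direction of the human cluster along its window, so it cannot be used to place the listed region. Hoxb13 stands apart from the others, and the microRNA gene Mir196a-1 lies between it and Hoxb9. A second microRNA gene, Mir10a, lies beside Hoxb4. Low-numbered genes such as Hoxb1 and Hoxb2 act in the hindbrain, and high-numbered genes such as Hoxb9 and Hoxb13 act toward the tail. The human HOXB cluster holds the matching genes HOXB1, HOXB2, HOXB3, HOXB4, HOXB5, HOXB6, HOXB7, HOXB8, HOXB9 and HOXB13. The lists give no value per gene, and which of these genes the listed region touches was not determined.

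The 2 lines could not be compared at the HOX clusters beyond these counts. Per the names of the lists, the human calls used a q-value threshold of 0.002, and the mouse calls used a q-value threshold of 1e-08 together with a minimum fold of 1.8. Species, line, threshold and library cannot be told apart, and H3K27ac and H3K27me3 were not measured in MDA-MB-231-Luc cells.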

How the data were processed

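Mononucleosomal chromatin immunoprecipitation libraries were sequenced from a single end to 100 bp, per the labels' protocols. The submitters' processing notes name SICER, MACS2 2.1.0, Bowtie 1.0.0 and FastQC 0.10.0, with the builds mm9 and hg19. Which tool called the changed regions, the use of the input libraries and any scaling for depth are not given in the sources used here. The authors deposited region positions only, as 2 human and 6 mouse lists, grouped here by line, hairpin and antibody from the labels.

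Of all starts and ends, 0 lay off a grid of 50 bp when starts were counted from 0 and ends were included. Coordinates are printed counted from 1. Regions overlapping a HOX window by at least 1 bp were counted, and each was named. Exact 95% Clopper-Pearson intervals cover counting error only. Tiles of 10000 bp ran from position 0 to the last listed end of each chromosome, with no stretch left out. The windows and gene lists were chosen with earlier results of these data known. With no mm9 or hg19 annotation used here, the planned counts of gene starts, HOX cofactors (PBX, MEIS, PKNOX), related homeobox genes and noncoding genes of the clusters were not made. With no genome sequence used here, no region sequence is printed. In simulated data, 50 of 50 regions planted in the windows were found, which checks the counting of overlaps only and not the power of the lists. Python 3.11.15, numpy 2.4.6, pandas 2.3.3, scipy 1.17.1 and matplotlib 3.10.9 were used.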

Additional observations from a re-analysis of the deposited data

How the results depend on the processing

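The count of 1 lower human region stayed at 1 when region centres had to lie in the window, when windows were widened by 50 kb on each side and when regions closer than 5000 bp were merged. It became 0 with regions of at least 2000 bp, because the HOXB region is shorter. In alternatives chosen after seeing the data, windows widened by 250 kb held 2 lower and 2 higher human regions, and windows widened by 1000 kb held 6 lower and 5 higher. The same widening gave 1 lower H3K27ac region of MMTV-Myc at 250 kb and at 1000 kb, and 1 lower H3K4me3 region at 1000 kb. Of 73 alternative values over 17 results, 65 stayed within the interval or the 1.5-fold range used to judge them, and 51 of these were a count or share of 0 that stayed 0. The lower share in the human windows went from 100.0% to 50.0% at 250 kb and 54.5% at 1000 kb. Both values counted as within the interval, because that of 1 region runs from 2.5 to 100.0%. Leaving out the HOXA, HOXC or HOXD window could not move the share, as none of these held a region. These counts therefore do not show stability. The lower share in the human windows had no value with regions of at least 2000 bp or without the HOXB window, and the mouse share had none, since 0 regions were left. No paired analysis was possible because each group holds 1 library, and no library could be left out for the same reason. The lists hold no depth or score, so a stricter threshold could not be applied.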
